A study of Mus musculus with 27 samples.

Results

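The receptors for epidermal growth factor and for fibroblast growth factor are 2 families of receptor tyrosine kinases, and their mRNAs were followed here through adult neurogenesis of the mouse forebrain. The genes were taken by symbol: Egfr, Erbb2, Erbb3 and Erbb4 of the EGF receptor family, and Fgfr1, Fgfr2 and Fgfr3 of the FGF receptor family. They are 7 of the 45195 genes of the raw count table, of which 44548 had a symbol, and all 7 had enough counts to be tested in every comparison. The 27 libraries, made with Smart-seq2, fall into 10 groups and cover 4 stages of one lineage. In the subventricular zone (SVZ) these are stem cells (NSC) and the early neuroblasts they give rise to (ENB), and in the olfactory bulb (OB) late neuroblasts (LNB) and neurons. For each stage the study measured total mRNA of sorted cells (3 libraries a stage) and mRNA bound to ribosomes (2 libraries for NSC, ENB and Neuron, 3 for LNB). Background was measured in 3 SVZ and 3 OB control libraries labelled as lacking HA.

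All animals were male, on a C57BL/6 background and aged 8 to 12 weeks, and recombination was induced with tamoxifen at 200 mg/kg by gavage. The lines were TiCRY (Tlx-CreER-Rpl22.HA-eYFP) and DiCRY (Dcx-CreER-Rpl22.HA-eYFP). In both lines a tamoxifen-inducible Cre switches on eYFP and an HA tag on the ribosomal protein Rpl22, in cells in which the Tlx or the Dcx driver is active, and descendants of these cells keep both. Sample names carry TiCRY for the NSC libraries and DiCRY for the ENB and LNB libraries. Those of the neuron libraries name neither line in full. Total mRNA came from 200 to 500 sorted eYFP-positive cells of 1 to 2 mice. Ribosome-bound mRNA came from an immunoprecipitate (IP) of the HA tag out of SVZ or OB tissue. The controls went through the precipitation without a tag to catch, and their names carry different lines or the absence of Cre, so they are background for a tissue and not for one line. The neuron IP libraries carry "Total mRNA" in one label field and were grouped by their titles.

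Ligand binding pairs these receptors and lets their kinase domains phosphorylate each other, which feeds the Ras-MAP kinase and PI3K pathways. Egfr binds EGF, TGF-alpha and HB-EGF. Erbb3 and Erbb4 bind neuregulins. Erbb2 has no known ligand of its own and Erbb3 has a weak kinase, so both signal in pairs with another member. FGF receptors bind FGFs together with heparan sulphate on syndecans and glypicans. In the adult SVZ, Egfr is known as a receptor of activated stem cells and dividing progenitors, Erbb4 as a neuregulin receptor of migrating neuroblasts and interneurons, and Fgfr3 as a receptor of astrocytes and radial glia.

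On the GRCm38.p6 assembly, Egfr (ENSMUSG00000020122) lies on chromosome 11 from 16752203 to 16913907 and Erbb2 (ENSMUSG00000062312) on chromosome 11 from 98412484 to 98437716. Erbb3 (ENSMUSG00000018166) lies on chromosome 10 from 128567523 to 128589635, and Erbb4 (ENSMUSG00000062209) on chromosome 1 from 68031884 to 69108576. Of the FGF receptors, Fgfr1 (ENSMUSG00000031565) lies on chromosome 8 from 25518759 to 25575718, Fgfr2 (ENSMUSG00000030849) on chromosome 7 from 130162451 to 130266808 and Fgfr3 (ENSMUSG00000054252) on chromosome 5 from 33721724 to 33737068. Counts are per whole gene. Every member except Fgfr2 and Fgfr3 overlaps at least 1 other annotated gene (Gm39584 and Egfros for Egfr, Mien1 for Erbb2, Mir6917 for Erbb3, Gm25542 and Gm51744 for Erbb4, Gm31288 and Gm16159 for Fgfr1), and the library kit does not mark the strand of a read, so reads of overlapping parts cannot be told apart.

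The 250 bases before an annotated start were available in the RefSeq table (GRCm38.p6) for 5 of the 7 members, in 6 windows; Erbb3 and Fgfr1 are named only. The windows of Egfr, Erbb4 and Fgfr3 are shown because these are the members with the most differences between stages below. Each is printed 5′ to 3′ on the strand of its gene: Egfr at chr11:16751953-16752202 (plus), Erbb4 at chr1:69108060-69108309 (minus; the start of one of its transcripts) and Fgfr3 at chr5:33721474-33721723 (plus). Capitals mark matches, on either strand, to the GC box GGGCGG, the E-box CAGCTG and the TATA box TATAAA.
Egfr: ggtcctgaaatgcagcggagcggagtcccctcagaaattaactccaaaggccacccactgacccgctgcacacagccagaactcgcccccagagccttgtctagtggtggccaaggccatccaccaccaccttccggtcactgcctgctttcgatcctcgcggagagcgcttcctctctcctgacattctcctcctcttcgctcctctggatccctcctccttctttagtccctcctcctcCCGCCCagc
Erbb4: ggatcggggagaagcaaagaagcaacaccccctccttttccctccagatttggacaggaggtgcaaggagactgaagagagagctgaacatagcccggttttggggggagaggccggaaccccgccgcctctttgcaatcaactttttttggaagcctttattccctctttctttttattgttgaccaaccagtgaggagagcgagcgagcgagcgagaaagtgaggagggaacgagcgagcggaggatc
Fgfr3: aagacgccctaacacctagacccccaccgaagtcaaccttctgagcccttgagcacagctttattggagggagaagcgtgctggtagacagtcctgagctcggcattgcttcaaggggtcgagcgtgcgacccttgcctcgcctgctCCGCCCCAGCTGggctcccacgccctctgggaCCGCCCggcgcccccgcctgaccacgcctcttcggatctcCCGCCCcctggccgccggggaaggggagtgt
The Egfr window holds 1 GC box at its 3′ end, the Fgfr3 window 3 GC boxes and 1 E-box directly beside a GC box, and the Erbb4 window none of the 3 motifs. Among all 32851 windows of this length, 32.7% hold a GC box, 13.0% the E-box and 12.4% the TATA box. G or C make up 60.8% of the Egfr window, 54% of the Erbb4 window and 66.8% of the Fgfr3 window, against a median of 52.4% over all windows. A second Fgfr3 window, at chr5:33722056-33722305, holds 2 GC boxes. A match is a run of letters and not a measured binding site.

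Libraries held 5225929 to 15994635 counts in total mRNA, 6325479 to 13316334 in the IPs and 5960357 to 9120659 in the controls. Levels are given in CPM (counts scaled to a common library size) after TMM scaling (edgeR's correction of library sizes), separately for the 12 total mRNA libraries and for the 15 IP and control libraries, so a CPM is compared only within one of these sets. Differences between groups are log2 fold changes ± standard error (SE) from edgeR's quasi-likelihood F test on the raw counts, with p-values adjusted over all genes tested (Benjamini-Hochberg) and a threshold of 0.05; spread between libraries, some of which share animals, sets these p-values. The lineage labels were set against marker lists. Summed CPM of 8 neuroblast genes reached 13507 to 13911 in ENB and 6217 to 13775 in LNB total mRNA, against 3602 to 4324 in NSC and 1329 to 1563 in Neuron. Sums of 10 neuronal genes were 6953 to 11133 in Neuron total mRNA and at most 1902 in the other stages. The LNB total mRNA libraries differed among themselves: 8 mature astrocyte genes summed to 6904, 1022 and 9782 CPM in replicates 1, 2 and 3, and 9 genes of ensheathing glia to 3745, 768 and 14399 CPM. The ENB IP resembled its controls in other cell types: 8 oligodendrocyte genes summed to 19753 and 20156 CPM there and to 17679 to 22529 CPM in the SVZ controls, while 8 neuroblast genes stood at 1700 and 4049 CPM against 528 to 714 CPM. In bulk RNA of this kind, fewer cells of a type and less mRNA per cell cannot be told apart.

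The members passed the test in between 0 and 5 of 7 cases per comparison. From NSC to ENB, 3 of 7 passed in total mRNA, where 10.1% of 17592 genes passed, and 3 of 7 in ribosome-bound mRNA, where 8.28% of 19066 genes passed; in both sets 1 was higher and 2 were lower in ENB. From ENB to LNB, 2 of 7 passed in total mRNA, both higher in LNB (3.77% of genes, 2.8% in that direction), and 3 of 7 in ribosome-bound mRNA, 1 higher and 2 lower (12.9%). From LNB to Neuron, 2 of 7 passed in total mRNA (14.7% of genes, 9.34% lower) and 1 of 7 in ribosome-bound mRNA (4.13%, 3.75% lower), all lower in Neuron. For LNB to Neuron in total mRNA, genes higher in Neuron were 36.3% of all calls, and 48.4% with RLE scaling (DESeq2's correction of library sizes). Against the controls of their tissue, 3 of 7 were higher in the NSC IP (15.3% of genes passed, 8.75% higher), 0 of 7 passed in the ENB IP (1.52%), 3 of 7 passed in the LNB IP (10.1%) and 5 of 7 were lower in the Neuron IP (27.4%, 15.7% lower). For the ENB IP, where edgeR called no member, 1 had an unadjusted p under 0.05 and DESeq2 called 1; this was Erbb4. Between the controls, 2 of 7 were higher in the OB (11.8%, 5.65% higher). Over all 6 pairs of stages, 16 of 42 member and pair combinations passed in total mRNA, where 15.1% of all gene and pair combinations passed, and 18 of 42 in ribosome-bound mRNA, where 16.3% passed. Of the pairs that skip a stage, NSC and LNB differed in 1 of 7 members in total mRNA (6.84% of genes, 4.25% higher, as was the member) and in 3 on ribosomes (19.9%), NSC and Neuron in 4 (23.7%) and 4 (26.7%), and ENB and Neuron in 4 (31.7%) and 4 (25.9%, 15.1% lower, as were all 4).

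**Figure D1:**
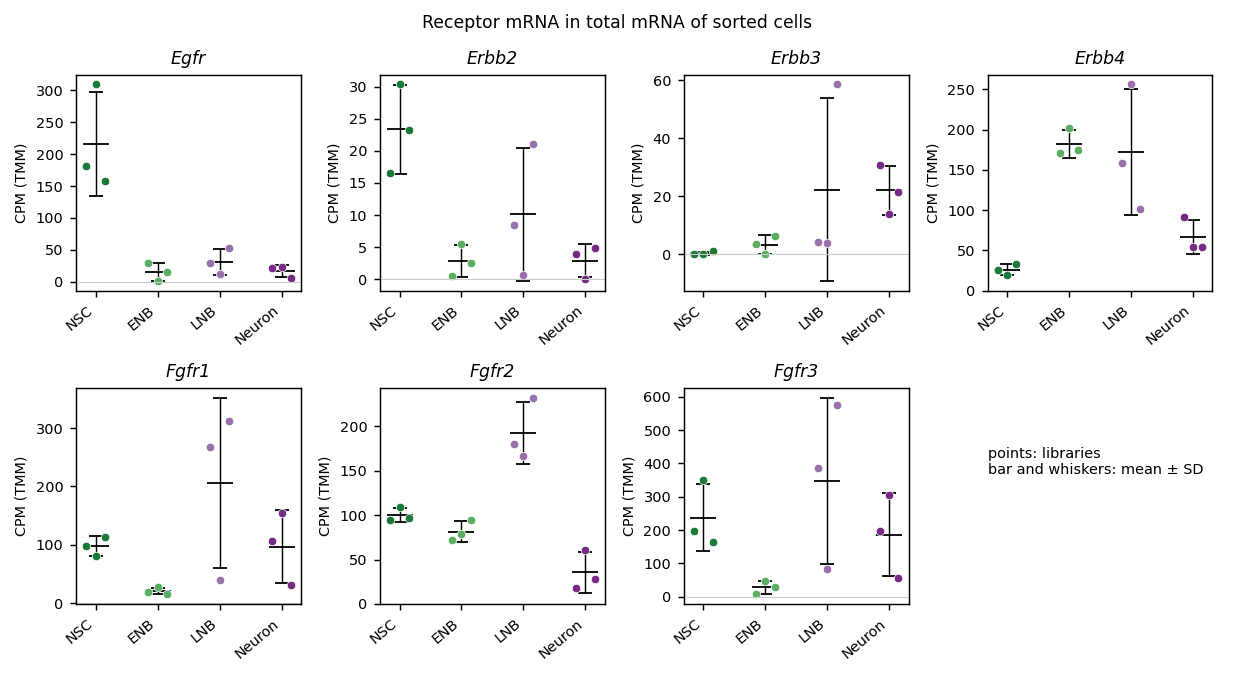
Level of each receptor mRNA in total mRNA, in CPM after TMM scaling, with 1 panel per gene; points are libraries (3 per stage), and bars with whiskers are means ± SD. Egfr stands at 158 to 309 CPM in NSC and at most 52.2 elsewhere, Erbb4 at 170 to 202 CPM in ENB against 19.9 to 33.2 in NSC, and the LNB libraries spread widely for Fgfr1 and Fgfr3.

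Egfr, the receptor for EGF and TGF-alpha, was highest in stem cells in both kinds of mRNA. In total mRNA it stood at 181, 309 and 158 CPM in the NSC libraries, at 29.0, 1.63 and 15.9 CPM in ENB, at 29.7, 12.2 and 52.2 CPM in LNB and at 21.6, 23.7 and 6.13 CPM in Neuron. Every NSC library was above every library of the other 3 stages, and those 3 overlapped one another. From NSC to ENB Egfr fell by 3.79 ± 0.86 on the log2 scale (adjusted p = 0.0187), and the difference from NSC to Neuron was −3.64 ± 0.86 (adjusted p = 0.00979). The difference from NSC to LNB, −2.79 ± 0.82, missed the threshold (adjusted p = 0.0649), and no pair among ENB, LNB and Neuron passed. The NSC to ENB call was lost without NSC replicate 2 (−3.47, adjusted p = 0.055) or ENB replicate 3 (−3.80, adjusted p = 0.074). The libraries also differ in the second of their sequencing indices; within the index carried by 1 NSC and 2 ENB libraries the difference was −3.84, and within the index carried by 2 and 1 it was −6.54.

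Ribosome-bound Egfr was also highest in NSC. The NSC IPs held 103 and 93.5 CPM, the ENB IPs 14.9 and 13.4, the LNB IPs 7.10, 7.08 and 8.05, and the Neuron IPs 8.44 and 6.33 CPM. The controls measured 19.5, 19.5 and 16.5 CPM in the SVZ and 13.8, 16.3 and 12.1 CPM in the OB. Only the NSC IPs stood above their controls, and the ENB, LNB and Neuron IPs all lay below the lowest control of their tissue. Egfr was enriched in the NSC IP by 2.41 ± 0.27 over the SVZ controls (adjusted p = 8.09e-05). It was lower than the OB controls by −0.93 ± 0.25 in the LNB IP (adjusted p = 0.0299) and by −0.93 ± 0.28 in the Neuron IP (adjusted p = 0.0234), and differed by −0.39 ± 0.28 in the ENB IP (adjusted p = 0.587). Both depletions depended on single libraries: the LNB call was lost without any of the LNB libraries or without OB control 1 or 2 (adjusted p = 0.055 to 0.12), and the Neuron call without OB control 1 or 2 or Neuron library 2 (−0.74 to −0.91, adjusted p up to 0.16). Between stages, ribosome-bound Egfr fell by 2.79 ± 0.31 from NSC to ENB (adjusted p = 0.000701; −2.85 within the index they share), a call that held under every alternative run.

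From ENB to LNB a further difference of −0.93 ± 0.28 in ribosome-bound Egfr passed (adjusted p = 0.0352), but these stages come from different tissues with different backgrounds. Relative to the controls of each tissue, a comparison added after the data were seen, the difference was −0.54 ± 0.37 (adjusted p = 0.57; 0.399% of genes passed). With the replicate number as a block, which pairs the ENB and LNB libraries that share an animal, it was −0.88 (adjusted p = 0.075), with the shared animals as a block −0.99 (adjusted p = 0.11). It missed the threshold without any of the 5 libraries (−0.84 to −0.99, adjusted p = 0.078 to 0.18). The larger differences from NSC to LNB, −3.72 ± 0.28 (adjusted p = 3.28e-07), and from NSC to Neuron, −3.73 ± 0.33 (adjusted p = 8.23e-07), stayed at −3.33 ± 0.37 (adjusted p = 0.000337) and −3.34 ± 0.39 (adjusted p = 6.4e-05) relative to the controls. LNB and Neuron IPs differed by −0.01 ± 0.28.

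Erbb4, the neuregulin receptor known from migrating neuroblasts, had the reverse order, with its lowest level in stem cells. Total mRNA held 25.1, 19.9 and 33.2 CPM in NSC, 170, 202 and 174 CPM in ENB, 159, 256 and 101 CPM in LNB and 91.4, 54.6 and 54.4 CPM in Neuron. Neither neuroblast stage overlapped NSC or Neuron, and the Neuron libraries lay between NSC and the neuroblasts. Erbb4 rose by 2.81 ± 0.36 from NSC to ENB (adjusted p = 0.00132; 3.10 and 2.80 within the 2 indices), which held under every alternative run, as did the differences from NSC to LNB (2.73 ± 0.36, adjusted p = 0.00117) and from ENB to Neuron (−1.44 ± 0.34, adjusted p = 0.00779). ENB and LNB differed by −0.08 ± 0.33 (adjusted p = 0.948). From LNB to Neuron it fell by 1.36 ± 0.34 (adjusted p = 0.0202), a call lost without LNB replicate 2 (−0.83, adjusted p = 0.12), Neuron replicate 2 or Neuron replicate 3 (both −1.24, adjusted p = 0.065 and 0.064). NSC and Neuron still differed by 1.36 ± 0.34 (adjusted p = 0.0137), which missed the threshold without NSC replicate 2 (1.21, adjusted p = 0.076) or Neuron replicate 1 (1.07, adjusted p = 0.053).

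Among ribosomes Erbb4 was also lowest in NSC, and its highest level was in LNB. The IPs held 18.6 and 23.9 CPM in NSC, 46.6 and 75.4 in ENB, 118, 116 and 129 in LNB, and 89.5 and 78.7 in Neuron. The SVZ controls held 22.2, 38.0 and 30.9 CPM and the OB controls 55.2, 40.2 and 66.1 CPM. The NSC IPs did not stand above their controls, while the ENB, LNB and Neuron IPs did in every library. Erbb4 rose by 1.52 ± 0.32 from NSC to ENB (adjusted p = 0.00971; 1.83 within the shared index), a call lost without NSC IP 1 (1.34, adjusted p = 0.069) or ENB IP 2 (1.13, adjusted p = 0.092). Against the controls, it was higher by 1.17 ± 0.25 in the LNB IP (adjusted p = 0.0143), lost without LNB library 2 (adjusted p = 0.059) or 3 (adjusted p = 0.078), while the differences of 1.00 ± 0.28 in the ENB IP (adjusted p = 0.0929) and 0.64 ± 0.27 in the Neuron IP (adjusted p = 0.0899) missed the threshold.

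The 2 tissues' controls differed in Erbb4 themselves, by 0.82 ± 0.25 from SVZ to OB (adjusted p = 0.0443). This call was lost without SVZ control 1 (0.64, adjusted p = 0.16) or 3 (0.84, adjusted p = 0.11) or OB control 1 (0.84, adjusted p = 0.083) or 3 (0.65, adjusted p = 0.14). The ENB to LNB difference in ribosome-bound Erbb4, 0.99 ± 0.29 (adjusted p = 0.0315), was 0.16 ± 0.38 relative to the controls (adjusted p = 0.89). The replicate block kept it, but the block of shared animals did not (0.98, adjusted p = 0.101). It missed the threshold without ENB library 1 (0.69, adjusted p = 0.27) and without any LNB library (0.94 to 1.02, adjusted p = 0.07 to 0.098). From NSC to LNB the rise was 2.51 ± 0.31 (adjusted p = 3.2e-05) and remained 1.68 ± 0.39 relative to the controls (adjusted p = 0.0239). From NSC to Neuron it was 1.98 ± 0.32 (adjusted p = 0.000245), and 1.16 ± 0.40 relative to the controls (adjusted p = 0.0722).

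**Figure D2:**
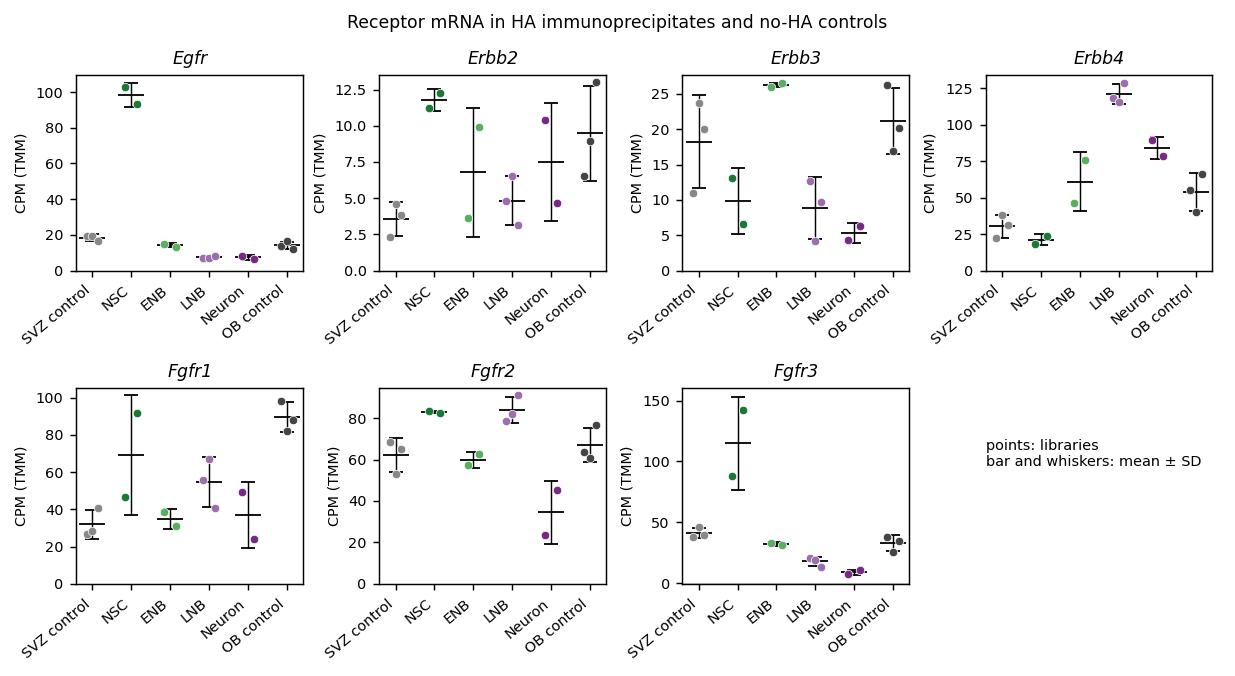
Level of each receptor mRNA in the HA immunoprecipitates and in the no-HA controls, in CPM after TMM scaling, with 1 panel per gene; points are libraries (2 or 3 per group), and bars with whiskers are means ± SD. Egfr and Fgfr3 stand above the SVZ controls only in the NSC IPs, while Erbb4 stands above the OB controls in the LNB and Neuron IPs.

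Erbb2, the family's co-receptor without a ligand, was low throughout, and none of its differences passed. In total mRNA it stood at 16.5, 30.4 and 23.3 CPM in NSC, 0.517, 5.50 and 2.47 in ENB, 8.50, 0.688 and 21.1 in LNB and 3.89, 0 and 4.83 in Neuron. The NSC libraries lay above every ENB and Neuron library, with differences of −3.05 ± 1.36 (adjusted p = 0.174) and −3.01 ± 1.37 (adjusted p = 0.13). In the IPs it ranged from 3.17 to 12.3 CPM, with 2.29 to 4.58 CPM in the SVZ controls and 6.52 to 13.0 CPM in the OB controls. The NSC IPs, at 11.2 and 12.3 CPM, were the only ones that all lay above their controls, by 1.71 ± 0.58 (adjusted p = 0.058). With levels of a few CPM, such folds rest on few reads.

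Erbb3, a neuregulin receptor with a weak kinase that is also prominent in oligodendrocyte precursors and other glia, was near the detection limit in sorted stem cells. Total mRNA held 0, 0 and 0.895 CPM in NSC (8 counts in all), 3.53, 0 and 6.32 in ENB, 4.25, 3.92 and 58.6 in LNB, and 30.7, 13.8 and 21.5 in Neuron. All 3 Neuron libraries were above every NSC and ENB library, and 1 LNB library was far above the others. The rise from NSC to Neuron was 6.35 ± 1.88 (adjusted p = 0.0292), an imprecise fold since the NSC level rests on 8 counts. It missed the threshold without NSC replicate 1 (adjusted p = 0.091) or 2 (adjusted p = 0.093) or Neuron replicate 1 (adjusted p = 0.059), and with the second index as a term (7.47, adjusted p = 0.109). Without NSC replicate 3 the other NSC libraries are at 0, and the fitted value of 10.9 (adjusted p = 0.0224) then depends on the prior count and is no bound. Summed CPM of 8 oligodendrocyte genes was 1900 to 8654 in Neuron total mRNA against 288 to 3045 in NSC. The sum of 8 precursor genes was 781 to 1524 against 31.1 to 183. For 9 genes of ensheathing glia it was 3043 to 5926 against 344 to 1980. In ENB total mRNA the sums of these lists were 1149 to 2952, 400 to 742 and 316 to 915 CPM, in the same order. There Mybpc1 of the ensheathing list was at 0 throughout. In LNB the ensheathing sums were 3745, 768 and 14399 CPM in replicates 1, 2 and 3, and replicate 3 held the highest Erbb3 level. No gene of these lists was at 0 throughout NSC, LNB or Neuron. The part of these cells in the Erbb3 differences was not tested.

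In the IPs Erbb3 did not exceed the controls in any stage by the test. NSC held 13.1 and 6.56 CPM, ENB 26.0 and 26.5, LNB 12.7, 4.17 and 9.75 and Neuron 4.34 and 6.33, with 11.0, 23.7 and 20.1 CPM in the SVZ controls and 26.2, 17.0 and 20.2 CPM in the OB controls. The ENB IPs were the highest and lay just above the highest SVZ control, with a difference of 0.52 ± 0.47 (adjusted p = 0.686). In the Neuron IP Erbb3 was lower than in the OB controls by −1.98 ± 0.51 (adjusted p = 0.0103), which missed the threshold without Neuron library 1 (−1.74, adjusted p = 0.066). From ENB to LNB it fell by 1.56 ± 0.47 (adjusted p = 0.0368), but not past the threshold with the replicate block (−1.64, adjusted p = 0.0502), with the shared animals as a block (−1.82, adjusted p = 0.078), relative to the controls (−1.77 ± 0.63, adjusted p = 0.28) or without either ENB library (adjusted p = 0.13 for each) or LNB library 2 (−1.23, adjusted p = 0.14) or 3 (−1.63, adjusted p = 0.094). The difference from ENB to Neuron, −2.30 ± 0.54 (adjusted p = 0.00558), held relative to the controls (−2.51 ± 0.68, adjusted p = 0.028; 10.2% of genes passed). In these IPs oligodendrocyte genes moved along: their sum was 19753 to 20156 CPM in ENB, 1713 to 2349 in LNB and 519 to 873 in Neuron. Between the controls they did not. Their sum was 17679 to 22529 CPM in the SVZ and 2265 to 5000 CPM in the OB controls, where Erbb3 differed by 0.21 ± 0.42 (adjusted p = 0.822). Their part in the Erbb3 differences was not tested.

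**Figure D3:**
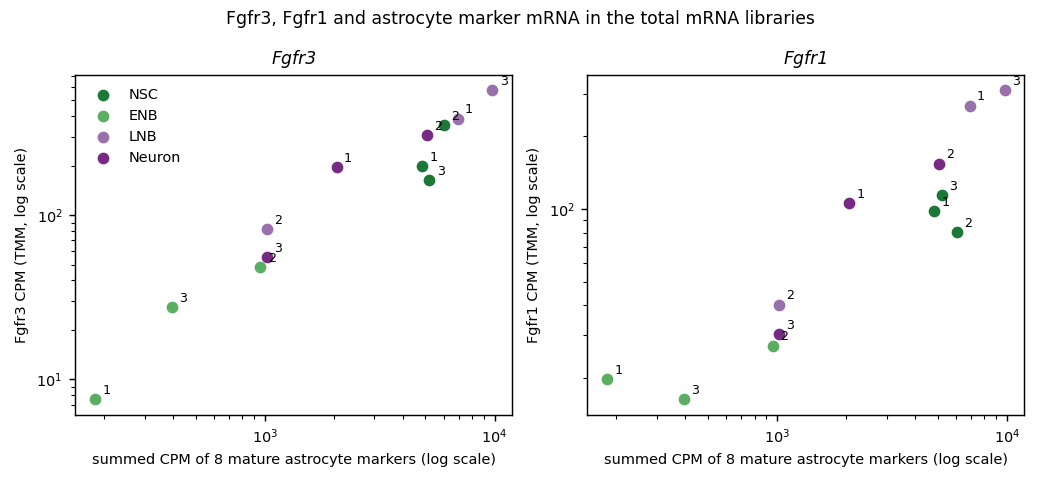
Total mRNA level of Fgfr3 and Fgfr1 (vertical axes, CPM after TMM scaling, log scale) against the summed CPM of 8 mature astrocyte marker genes (horizontal axes, log scale) in the 12 total mRNA libraries, coloured by stage and numbered by replicate. LNB replicates 1 and 3 sit high on both axes, at 387 and 577 CPM of Fgfr3 beside marker sums of 6904 and 9782 CPM, and LNB replicate 2 sits lower, at 82.1 CPM beside 1022 CPM.

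Fgfr3, known from astrocytes and radial glia, had different courses in the 2 kinds of mRNA. Total mRNA held 198, 352 and 163 CPM in NSC, 7.58, 48.0 and 27.4 in ENB, 387, 82.1 and 577 in LNB and 196, 306 and 55.5 in Neuron. ENB lay below every library of the other stages, while NSC, LNB and Neuron overlapped. Fgfr3 fell by 3.11 ± 0.82 from NSC to ENB (adjusted p = 0.0345; −4.59 and −1.90 within the 2 indices) and rose by 3.66 ± 0.84 from ENB to LNB (adjusted p = 0.0362; 2.49 and 3.29 within them), and it was 2.75 ± 0.81 higher in Neuron than in ENB (adjusted p = 0.0229). The first call missed the threshold without any of its 6 libraries (−2.70 to −3.76, adjusted p = 0.051 to 0.11). The second was lost without any library except LNB replicate 2, whose omission raised it to 4.06 (adjusted p = 0.0063), and was 3.09 without LNB replicate 3 (adjusted p = 0.12) and 3.59 with the shared animals as a block (adjusted p = 0.06). The third was lost without ENB replicate 1 (2.40, adjusted p = 0.064) or 3 (2.74, adjusted p = 0.071) or Neuron replicate 2 (2.18, adjusted p = 0.076).

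Astrocyte marker mRNA moved with total Fgfr3 from library to library. The sum of the 8 mature astrocyte genes, all detected in every stage, was 4825 to 6048 CPM in NSC, 183 to 958 in ENB, 6904, 1022 and 9782 in LNB and 2058, 5074 and 1023 in Neuron. In LNB and in Neuron the library with the highest Fgfr3 level also had the highest astrocyte sum, and the lowest Fgfr3 went with the lowest sum. The part of these cells in the Fgfr3 result was not tested. The 3 genes whose level was most like that of Fgfr3 over the 12 total mRNA libraries, by Pearson's r of log2 CPM among 10720 genes, were Apoe (0.990), Cyp4f15 (0.987) and Acsl6 (0.984); the libraries share depth and composition, so r is a description.

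On ribosomes Fgfr3 instead declined along the lineage. The IPs held 87.9 and 142 CPM in NSC, 33.4 and 31.1 in ENB, 21, 19.2 and 13.5 in LNB and 7.38 and 10.5 in Neuron, and no 2 stages overlapped. The controls held 37.8, 46.1 and 39.7 CPM in the SVZ and 38.1, 26.0 and 34.9 CPM in the OB, so only the NSC IPs exceeded background. The enrichment in the NSC IP was 1.48 ± 0.28 (adjusted p = 0.00323), and missed the threshold without NSC library 2 (1.11, adjusted p = 0.065). Fgfr3 was depleted in the Neuron IP by −1.89 ± 0.31 (adjusted p = 0.000743), under every alternative run, and in the LNB IP by −0.89 ± 0.26 (adjusted p = 0.0415), which was lost without any LNB library (−0.72 to −1.02, adjusted p = 0.067 to 0.20) or OB control 1 or 3 (both adjusted p = 0.11). From NSC to ENB ribosome-bound Fgfr3 fell by 1.83 ± 0.32 (adjusted p = 0.00466; −1.84 within the shared index), with −2.69 ± 0.29 from NSC to LNB (adjusted p = 8.1e-06) and −3.69 ± 0.35 from NSC to Neuron (adjusted p = 1.65e-06). Relative to the controls these last differences were −2.37 ± 0.38 (adjusted p = 0.00319) and −3.37 ± 0.42 (adjusted p = 9.9e-05). The consecutive differences from ENB to LNB (−0.85 ± 0.29, adjusted p = 0.0617) and from LNB to Neuron (−1.0 ± 0.30, adjusted p = 0.0766) missed the threshold. Relative to the controls the ENB to LNB difference was −0.53 ± 0.39 (adjusted p = 0.60).

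Fgfr1, the most broadly expressed FGF receptor, shared the ENB low of Fgfr3 in total mRNA. It stood at 98.1, 80.3 and 114 CPM in NSC, 19.7, 27.3 and 16.3 in ENB, 268, 40.2 and 311 in LNB and 106, 154 and 30.3 in Neuron. Every ENB library was below every library of the other stages, and LNB replicate 2 was again the low library of its group. No other LNB total mRNA library carries its second index, which all Neuron total mRNA libraries carry. Within that index Neuron differed from LNB by 0.98 for Fgfr1 and 0.86 for Fgfr3, against −1.09 and −0.91 over all libraries. The astrocyte sums moved with Fgfr1 as they did with Fgfr3, at 6904, 1022 and 9782 CPM in LNB and 2058, 5074 and 1023 CPM in Neuron. Their part in the Fgfr1 differences was not tested. Fgfr1 rose by 3.29 ± 0.70 from ENB to LNB (adjusted p = 0.0294; 1.15 and 3.40 within the 2 indices). This call was lost without any ENB library (3.13 to 3.51, adjusted p = 0.078 to 0.12), LNB replicate 1 (3.05, adjusted p = 0.089) or LNB replicate 3 (2.87, adjusted p = 0.1), and was 3.7 without LNB replicate 2 (adjusted p = 0.00158). It was 2.21 ± 0.67 higher in Neuron than in ENB (adjusted p = 0.0266), lost without any ENB library (adjusted p = 0.053 to 0.091) or without Neuron replicate 1 (2.13, adjusted p = 0.056) or 2 (1.69, adjusted p = 0.095). The NSC to ENB difference, −2.21 ± 0.67, missed the threshold (adjusted p = 0.0564).

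Ribosome-bound Fgfr1 varied less and was highest in the OB controls. The IPs held 46.5 and 91.8 CPM in NSC, 38.5 and 31.2 in ENB, 56.0, 67.2 and 40.6 in LNB and 49.5 and 24.3 in Neuron, against 27.0, 28.2 and 41.0 CPM in the SVZ controls and 98.3, 82.3 and 88.0 CPM in the OB controls. The OB controls exceeded the SVZ controls by 1.48 ± 0.31 (adjusted p = 0.00418), and every LNB and Neuron IP lay below the lowest OB control. The NSC IP was enriched by 1.11 ± 0.34 (adjusted p = 0.0368), which rests on NSC library 2: without it the difference was 0.55 (adjusted p = 0.40), and it also missed the threshold without SVZ control 1 (1.00, adjusted p = 0.08) or 2 (1.03, adjusted p = 0.096). The Neuron IP was depleted by −1.28 ± 0.35 (adjusted p = 0.0148), lost without Neuron library 2 (−0.85, adjusted p = 0.16). None of the 6 stage pairs passed for ribosome-bound Fgfr1. Relative to the controls, NSC to LNB was −1.82 ± 0.45 (adjusted p = 0.035; 3.59% of genes passed) and NSC to Neuron −2.39 ± 0.49 (adjusted p = 0.0045; 11.5%).

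Fgfr2, a receptor for several paracrine FGFs, fell from LNB to Neuron in both kinds of mRNA. Total mRNA held 94.3, 109 and 97.3 CPM in NSC, 71.7, 78.6 and 94.0 in ENB, 180, 166 and 233 in LNB and 17.5, 60.9 and 27.7 in Neuron. LNB was above and Neuron below every library of the other stages. From LNB to Neuron Fgfr2 fell by 2.45 ± 0.38 (adjusted p = 0.0016), and differed by −1.5 ± 0.37 from NSC to Neuron (adjusted p = 0.0121); both held under every alternative run, and the first was −2.42 within the index that all Neuron libraries carry. From ENB to Neuron it fell by 1.2 ± 0.37 (adjusted p = 0.0266), lost without any ENB library (adjusted p = 0.054 to 0.081), Neuron replicate 1 (−0.88, adjusted p = 0.06) or Neuron replicate 3 (−1.06, adjusted p = 0.081). The higher level in LNB than in ENB, 1.24 ± 0.36, missed the threshold (adjusted p = 0.0829).

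In the IPs Fgfr2 stood at 83.3 and 82.4 CPM in NSC, 57.2 and 62.6 in ENB, 78.7, 82.1 and 91.0 in LNB and 23.7 and 45.3 in Neuron, with 53.1 to 68.5 CPM in the SVZ controls and 60.7 to 76.5 CPM in the OB controls. Both Neuron IPs lay below every other library of the set, and the other groups were within a narrow range. Ribosome-bound Fgfr2 fell by 1.28 ± 0.26 from LNB to Neuron (adjusted p = 0.0107), lost without Neuron library 1 (−0.90, adjusted p = 0.072), and differed by −1.26 ± 0.28 from NSC to Neuron (adjusted p = 0.00317; −1.37 ± 0.36 relative to the controls, adjusted p = 0.0207). The Neuron IP was depleted against the OB controls by −0.96 ± 0.26 (adjusted p = 0.0135), lost without Neuron library 1 (−0.56, adjusted p = 0.15). No second index is shared by LNB and Neuron IPs, so there is no value within an index for that step.

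**Figure D4:**
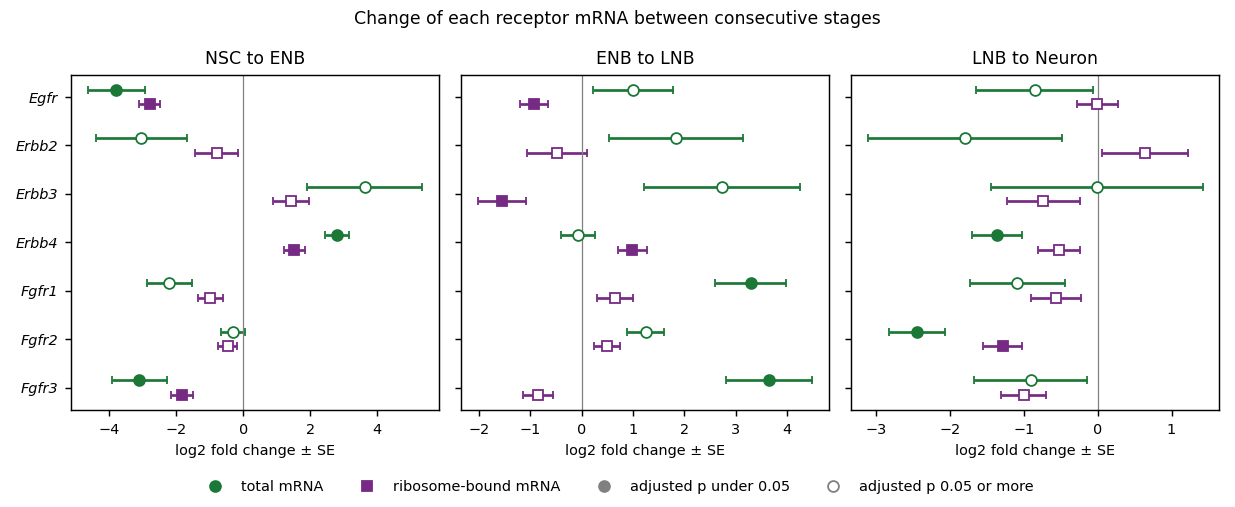
Change of each receptor mRNA between consecutive stages, as log2 fold change ± SE, in total mRNA and in ribosome-bound mRNA; values above 0 are higher in the later stage, and filled points passed the adjusted p threshold of 0.05. From NSC to ENB the called members have the same sign in both materials (Egfr and Fgfr3 lower, Erbb4 higher), and from ENB to LNB Fgfr3 lies at 3.66 in total and at −0.85 in ribosome-bound mRNA.

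The step from ENB to LNB differed between the 2 kinds of mRNA for 1 of 7 members, while 6.15% of 19913 genes passed that test, 4.26% with the lower step on ribosomes. This was Fgfr3, with a difference between the steps of −4.62 ± 0.99 (adjusted p = 0.0122): it was higher in LNB in total mRNA and, with a value of −0.85 that missed the threshold, not on ribosomes. The difference remained past the threshold without any single library, but missed it with the second index as a term (−4.47, adjusted p = 0.051) and with the shared animals as a block (−4.38, adjusted p = 0.059). In Fgfr3 the ENB and LNB IPs all lay below the lowest control of their tissue, and this test used no controls. For Fgfr1 the difference was −2.76 ± 0.86 (adjusted p = 0.066), and −3.16 without LNB total replicate 2 (adjusted p = 0.00531). Without LNB total replicate 1 or 3 it missed the threshold (−2.43 and −2.33, adjusted p = 0.14 and 0.16). Erbb4 differed by 0.96 ± 0.45 (adjusted p = 0.235), and by 1.44 without LNB total replicate 2 (adjusted p = 0.0348). Without replicate 1 or 3 the Erbb4 difference was 0.88 and 0.69 (adjusted p = 0.41 and 0.43). The astrocyte sums moved in the directions of Fgfr3. They were higher in the LNB than in the ENB total libraries, but lower in the LNB IPs (1177 to 1586 CPM) than in the ENB IPs (3001 to 3092 CPM). Their part in the result was not tested. From NSC to ENB and from LNB to Neuron edgeR called 0 of 7 members (2.81% and 3.15% of genes passed), with 1 at an unadjusted p under 0.05 in each, and DESeq2 called 0 in both. Erbb4 had the smallest adjusted p in the first, −1.12 ± 0.48 (adjusted p = 0.22), and Fgfr2 in the second, 1.16 ± 0.49 (adjusted p = 0.20).

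Levels of different genes were compared on the deposited TPM, a transcript abundance that accounts for length. In NSC total mRNA the mean TPM was 103 for Fgfr3, 49.6 for Fgfr2, 41.7 for Fgfr1 and 41.4 for Egfr, and 9.36 or less for the other 3. The make-up of the EGF receptor family turned over between NSC and ENB: Egfr made up 70.0% ± 8.48 (SD, n = 3) of the family in NSC total mRNA and 6.87% ± 5.75 (n = 3) in ENB, and Erbb4 17.2% ± 8.42 and 90.1% ± 5.88. The summed level of the 4 genes was 58.0 ± 13.7 TPM in NSC, 55.0 ± 7.64 in ENB, 60.3 ± 7.85 in LNB and 26.2 ± 7.35 in Neuron (SD, n = 3 each). Erbb4 remained the largest part in LNB (77.1% ± 19.1) and Neuron (63.6% ± 11.0), where Erbb3 made up 23.7% ± 12.5. On ribosomes Egfr made up 64.0% ± 6.65 (n = 2) in NSC and 12.3% ± 1.5 (n = 2) in ENB, and Erbb4 13.7%, 50.2%, 75% and 74.4% in NSC, ENB, LNB and Neuron. The controls, with no tag to catch, already held 46.9% Erbb4 in the SVZ and 59.3% in the OB. These shares carry no test, and mean TPM did not always order the groups as mean CPM did. Erbb4 stood at 15.2 TPM in the LNB IPs and 16.5 in the OB controls, beside 121 and 53.8 CPM. Egfr stood at 2.255 TPM in the ENB IPs and 1.66 in the SVZ controls, beside 14.1 and 18.5 CPM.

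**Figure D5:**
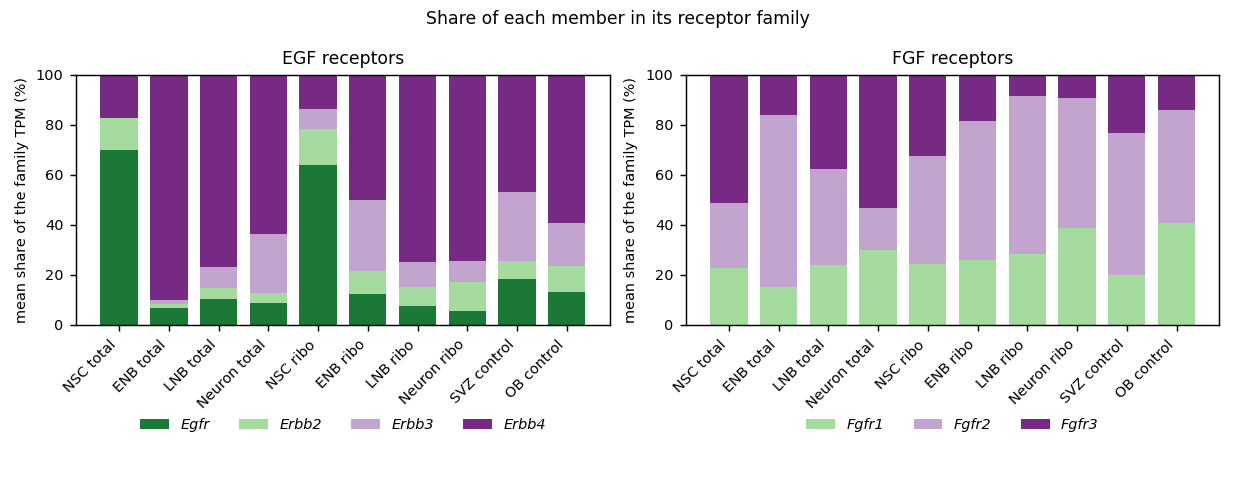
Mean share of each member in the summed TPM of the listed members of its family, in percent, for the EGF receptors and the FGF receptors in the 10 groups (2 or 3 libraries each). Egfr makes up 70.0% of its family in NSC and 6.87% in ENB total mRNA, Erbb4 takes 90.1% in ENB, and Fgfr3 ranges from 51.2% in NSC total mRNA to 8.70% in the LNB IPs.

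Among the FGF receptors, shares were taken of the summed TPM of Fgfr1, Fgfr2 and Fgfr3 only. Fgfr3 made up 51.2% ± 14.3 in NSC total mRNA, 16.4% ± 8.57 in ENB, 37.7% ± 13.1 in LNB and 53.2% ± 4.82 in Neuron (SD, n = 3 each). Fgfr2 took the largest share in ENB, 68.5% ± 9.54, and the smallest in Neuron, 17.0% ± 12.9. On ribosomes the shares of Fgfr3 were 32.6%, 18.7%, 8.70% and 9.57% from NSC to Neuron and those of Fgfr2 43.2%, 55.5%, 63.0% and 51.8%. Unlike that of the EGF receptors, the summed level of the FGF receptors varied several-fold in total mRNA, from 57.7 ± 11.8 TPM in ENB to 286 ± 121 TPM in LNB. In Neuron total mRNA Fgfr3 was thus the highest of these 3 FGF receptors, in libraries whose astrocyte sums ran from 1023 to 5074 CPM. On ribosomes of neurons Fgfr2 made up 51.8% ± 29.1 and Fgfr1 38.6% ± 28.6 (SD, n = 2), at levels below the OB controls.

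The other genes of the pathways were taken as lists by role. Of all genes, 10.1%, 3.77% and 14.7% passed in the 3 consecutive steps of total mRNA, and 8.28%, 12.9% and 4.13% on ribosomes. Of 7 EGF family ligands 4 were tested. Hbegf, a ligand of Egfr and Erbb4, rose by 3.16 ± 0.55 from ENB to LNB in total mRNA (adjusted p = 0.0141), the only one past the threshold in a consecutive step of total mRNA; it was lost under 4 of 13 alternatives. Tgfa, a ligand of Egfr, fell by 1.83 ± 0.29 from ENB to LNB on ribosomes (adjusted p = 0.000456), and differed by −1.97 ± 0.27 from the SVZ to the OB controls. The 4 neuregulins, ligands of Erbb3 and Erbb4, were all tested. None passed in a consecutive step of either material, which for 4 genes is close to the shares of all genes. Their medians in total mRNA were 0.06, 0.29 and 0.10, beside −0.01, 0.05 and −0.18 over all genes. Of 22 FGF ligands 11 were tested in total mRNA. None passed from NSC to ENB; Fgf12, one of the intracellular FGFs, rose by 2.53 ± 0.48 from ENB to LNB (adjusted p = 0.0214; lost under 4 of 13 alternatives), and Fgf9, a secreted ligand, by 6.12 ± 1.36 from LNB to Neuron (adjusted p = 0.0116). Fgf12 also rose by 2.36 ± 0.28 from ENB to LNB on ribosomes (adjusted p = 3.05e-05), a step between tissues. It was also higher in the OB than in the SVZ controls, by 0.79 to 1.42 over the alternatives, each of which kept the call. The LNB IP exceeded the OB controls in Fgf12 by 0.54 to 0.89 over the alternatives, a call lost under 7 of 12.

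Among 19 other receptors and co-receptors of these pathways, which include the syndecans and glypicans that present FGFs, 16 were tested. From NSC to ENB in total mRNA, where 10.1% of all genes passed, 1 was higher and 5 were lower, with a median of −1.35 beside −0.01 over all genes tested. Sdc4, a heparan sulphate syndecan, fell by 4.12 ± 0.78 (adjusted p = 0.00847), and Gpc3, a glypican at 0 in the ENB libraries, was at least 45.2-fold lower, taking 3 counts over the group as the limit. From ENB to LNB, where 3.77% of all genes passed, 2 were higher, with a median of 0.01 beside 0.05. They were Sdc4 (3.38 ± 0.75, adjusted p = 0.0333) and Gpc5 (3.51 ± 0.67, adjusted p = 0.0215, lost under 6 of 13 alternatives). From LNB to Neuron, where 14.7% of all genes passed, 1 was higher, Gpc3, at least 140-fold against the LNB libraries at 0, and 3 were lower. Sdc4 thus had the low in ENB total mRNA that Fgfr3 and Fgfr1 had. On ribosomes it declined in each consecutive step, by −1.39 ± 0.41, −1.37 ± 0.37 and −2.06 ± 0.41 (adjusted p = 0.046, 0.0212 and 0.00918). The step from ENB to LNB lies between tissues. Sdc4 was enriched in the NSC IP (2.14 ± 0.37, adjusted p = 0.00163). In the Neuron IP it was depleted against the OB controls, by −3.28 to −2.31 over the alternatives. Of these Sdc4 calls, the NSC to ENB fall in total mRNA held under every alternative run. So did the enrichment in the NSC IP and the depletion in the Neuron IP. The ENB to LNB rise in total mRNA was lost under 8 of 13 alternatives. The declines on ribosomes were lost under 6 of 10, 6 of 12 and 2 of 11, in the order of the steps.

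The counts of the lists downstream of the receptors are read against the same shares of all genes, which were 10.1%, 3.77% and 14.7% for the 3 consecutive steps in total mRNA and 8.28%, 12.9% and 4.13% on ribosomes. All 28 adaptors and kinases were tested: from NSC to ENB in total mRNA 4 were higher and 2 lower (median 0.31 beside −0.01), among them Grb2, the adaptor that links the receptors to Ras, by 1.31 ± 0.26 (adjusted p = 0.0109; lost under 2 of 12). From ENB to LNB 1 was higher, and from LNB to Neuron 4 were higher and 3 lower, with Map2k1, the kinase upstream of ERK, higher by 2.47 ± 0.41 (adjusted p = 0.00244). On ribosomes, 1 was higher and 1 lower from NSC to ENB, 4 were higher and 1 lower from ENB to LNB, and none passed from LNB to Neuron. Of 18 feedback inhibitors tested, 2 were higher and 1 was lower from NSC to ENB in total mRNA, 2 were higher from ENB to LNB, and 1 was higher and 2 were lower from LNB to Neuron. On ribosomes the counts were 1 higher, 3 higher and 2 lower, and 1 lower. Dusp4, a phosphatase of MAP kinases that is itself induced by ERK signalling, rose by 3.32 ± 0.36 from NSC to ENB (adjusted p = 0.000669) and fell by 5.76 ± 0.42 from LNB to Neuron (adjusted p = 2.5e-05), both under every alternative run. It was enriched in the ENB IP by 5.30 ± 0.90 over the SVZ controls (adjusted p = 0.00544), a call lost under 2 of 11 alternatives. Spry2, an inhibitor of receptor tyrosine kinase signalling, was lower in ENB than in NSC total mRNA by −1.49 ± 0.40 (adjusted p = 0.0376), lost under 8 of 12. Of 14 ETS factors and early response genes, Etv1 rose by 1.87 ± 0.30 from NSC to ENB in total mRNA (adjusted p = 0.00436) and fell by 1.23 ± 0.30 from LNB to Neuron (adjusted p = 0.0178; lost under 2 of 12). It was the only one of the 14 that passed from NSC to ENB. In total mRNA 2 were lower from ENB to LNB, Egr1 and Ier2, and 1 was higher and 2 were lower from LNB to Neuron. On ribosomes the list had the opposite sign from ENB to LNB: 3 were higher and none lower, with a median of 1.39 (beside 0.08 over all genes), against −0.38 (beside 0.05) in total mRNA. This step lies between tissues, and the median of the list from the SVZ to the OB controls was 1.29 (beside 0.02). From ENB to LNB the immediate early gene Ier2 was lower by −1.40 ± 0.33 in total mRNA (adjusted p = 0.0412, lost under 5 of 13) and rose by 2.83 ± 0.52 on ribosomes (adjusted p = 0.00176). It differed by 2.92 ± 0.46 from the SVZ to the OB controls. Fos, another immediate early gene, rose by 3.05 ± 0.76 on ribosomes (adjusted p = 0.0143; lost under 3 of 12) and Etv1 by 1.40 ± 0.25 (adjusted p = 0.00128), with 3.18 ± 0.66 and 1.42 ± 0.22 between the controls. None of the 14 passed on ribosomes in the other consecutive steps.

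The genes nearest to each of the other members over the 12 total mRNA libraries, by the same measure, were Gstz1 for Egfr (r = 0.964), Decr1 for Erbb2 (0.952), Kif3b for Erbb3 (0.955), Fam78b for Erbb4 (0.985), Slc7a10 for Fgfr1 (0.987) and Gm26775 for Fgfr2 (0.947). No member was among the 3 nearest genes of another member.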

How the data were processed

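The authors deposited raw counts per gene, RSEM expected counts and TPM. Bowtie2 2.2.6, RSEM 1.2.21 and the build GRCm38 are named in the submitters' processing notes; the tool behind the raw counts is not given in the sources used here. Per the deposited tables, counts hold whole numbers for 45195 genes, expected counts are estimated counts that were rounded here before use as an alternative, and TPM, scaled by the authors' software, was used for comparing genes; 92 TPM rows without an identifier were left out. Groups came from GEO's titles.

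Counts were filtered with filterByExpr, scaled by TMM and fitted with edgeR 4.0.16 (R 4.3.3) in 3 sets: 12 total mRNA libraries, 15 IP and control libraries, and 21 total and IP libraries for the difference between the steps. Adjusted p-values are Benjamini-Hochberg values from edgeR's quasi-likelihood test over all genes tested, with a threshold of 0.05. SE is the absolute log2 fold change divided by the square root of F. The fits were tested on simulated data first. Intervals and tests treat reads without molecular identifiers as counted.

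Alternatives were RLE scaling, no filter on low counts, DESeq2 1.42.0, the expected counts, the replicate number as a block, the second index as a term, the shared animals as a block, and each library left out. Differences relative to the controls were added after the data were seen. Replicate numbers mark shared animals only for ENB and LNB IPs 1 and 2, per the labels. Correlations of the deviations of same-numbered libraries from their group means were -0.114 to 0.066 in total mRNA and -0.013 to 0.091 in the IPs.

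Named genes were the 7 members, the members of the pathway lists past the threshold, and the 3 genes most like each member by Pearson's r, among genes with a mean log2 CPM of at least 3 (prior count 2). The members and lists were chosen with earlier results of these data known. Marker lists were for neuroblasts, neurons, stem cells, astrocytes, ensheathing glia, oligodendrocytes and their precursors. Further lists were for transit amplifying and dividing, endothelial, mural and fibroblast, microglial and ependymal cells. Genes of transit amplifying and dividing cells (7) summed to 2246 to 2551 CPM in NSC and 2550 to 2806 CPM in ENB total mRNA. In the IPs their sums were 811 to 1227 CPM in NSC and 207 to 278 CPM in ENB. Stem cell and astrocyte lineage genes (10) summed to 12411 to 14592 CPM in NSC total mRNA and 1561 to 2181 CPM in ENB. Their sums were 2008 to 15028 CPM in LNB and 2352 to 7271 CPM in Neuron total mRNA, so LNB overlapped NSC.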

Additional observations from a re-analysis of the deposited data

Results flagged for a closer look

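Fgfr3 differed between total and ribosome-bound mRNA in the step from ENB to LNB. The difference between the steps was -4.62 ± 0.99 on the log2 scale (edgeR's quasi-likelihood test of the interaction, adjusted p = 0.0122), with a step of 3.66 in total mRNA and -0.85 on ribosomes. Every LNB total mRNA library was above every ENB total mRNA library, and every LNB IP was below every ENB IP. The ENB and LNB IPs all lay below the lowest control of their tissue, and the test between the materials used no controls. Relative to the controls, the step on ribosomes was -0.53 ± 0.39 (adjusted p = 0.60 by the same kind of test). LNB replicate 2 held 82.1 CPM of Fgfr3 beside 387 and 577 CPM in the other LNB total mRNA libraries, and without it the difference was -5.01, against -4.05 without LNB replicate 3. The difference missed the threshold with the shared animals as a block (-4.38, adjusted p = 0.059) and with the second index as a term (-4.47, adjusted p = 0.051). Mature astrocyte genes moved in the directions of Fgfr3: their sums were higher in LNB than in ENB total mRNA, and lower in the LNB than in the ENB IPs. Their part in the result was not tested.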

How the results depend on the processing

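Of 48 differences of a member between stages, against controls or between materials that passed the threshold, 18 passed under every alternative run and 30 were lost under at least 1. Leaving out 1 library changed the counts of members past the threshold to 1 to 2 (from 3) for NSC to ENB, 0 to 2 (from 2) for ENB to LNB and 1 to 2 (from 2) for LNB to Neuron in total mRNA. On ribosomes it gave 0 to 1 (from 3) for ENB to LNB and 0 to 1 (from 1) for LNB to Neuron. It gave 1 to 3 (from 3) in the NSC IP, 0 to 2 (from 3) in the LNB IP, 3 to 5 (from 5) in the Neuron IP, 1 to 2 (from 2) between the controls, and 1 to 3 (from 1) and 0 to 1 (from 0) for the difference between the materials in the ENB to LNB and LNB to Neuron steps. Over all pairs of stages it gave 9 to 15 (from 16) in total mRNA and 13 to 18 (from 18) on ribosomes.

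With the replicate block, ENB to LNB gave 0 in total mRNA and 1 on ribosomes; it changed no other count by over 1.5 times. In total mRNA the numbers share only a label. With the second index as a term the counts were 0 for ENB to LNB in total mRNA, 1 in the ENB IP, 3 in the Neuron IP, 1 between the controls and 0 for the difference between the materials from ENB to LNB. With the animal block, ENB to LNB gave 1 in total mRNA, 0 on ribosomes and 0 between the materials. With the expected counts there was 1 for ENB to LNB on ribosomes, 1 in the LNB IP and 1 between the controls. DESeq2 gave 2 for LNB to Neuron on ribosomes, 1 in the ENB IP, 5 in the LNB IP and 2 between the materials from ENB to LNB, and no filter gave 1 in the ENB IP and 2 between the materials. Relative to the controls, an alternative chosen after seeing the data, ENB to LNB gave 0 on ribosomes. Causes were not tested.

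Values that turned direction had all missed the threshold. With 1 library left out, Erbb4 from ENB to LNB ran from -0.559 to 0.19 and Erbb3 from LNB to Neuron from -0.507 to 2.42 in total mRNA. On ribosomes the ranges were -1.03 to 0.43 for Erbb2 from ENB to LNB, -0.239 to 0.178 for Egfr, LNB to Neuron, ribosome-bound mRNA, and -0.0672 to 1.10 for Erbb2 in that step. They were -0.0176 to 0.335 for Fgfr1 and -0.109 to 0.029 for Fgfr2 in the ENB IP, -1.03 to 0.136 for Erbb2 in the Neuron IP, and -0.0486 to 0.473 for Erbb3 and -0.00144 to 0.18 for Fgfr2 between the controls. For the difference between the materials they were -0.126 to 0.0335 for Fgfr2 from NSC to ENB, and -0.218 to 0.905 for Fgfr1 and -0.676 to 0.351 for Fgfr3 from LNB to Neuron. Erbb3 from LNB to Neuron in total mRNA was also 0.145 with RLE, 0.161 with no filter, 0.14 with DESeq2, 1.35 with the replicate block and 1.19 with the index. Egfr from LNB to Neuron on ribosomes was 0.0652 with RLE, 0.0649 with DESeq2 and 0.311 with the index. With the index, Erbb2 on ribosomes was 0.0346 from ENB to LNB and -0.503 from LNB to Neuron, and Fgfr1 from ENB to LNB was -0.836 relative to the controls. Fgfr2 in the ENB IP was 0.0316 with the expected counts, 0.000744 with the replicate block and 0.0718 with the index. Between the materials, Fgfr2 from NSC to ENB was 0.00932 with RLE, 0.00931 with DESeq2 and 0.109 with the index, and Fgfr3 from LNB to Neuron was 0.00633 with the replicate block; the index term could not be fitted for LNB to Neuron. With RLE the median over all genes moved by 0.16 for LNB to Neuron in total mRNA, -0.14 for ENB to LNB on ribosomes and -0.16 in the LNB IP.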
